A study of Mus musculus with 27 samples.

Results

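The ileal unfolded protein response was followed through 10 genes of the endoplasmic reticulum (ER) and its stress signaling, taken as a set by their function. The set was chosen with earlier results of these data known. They are the ER chaperones *Hspa5* and *Hsp90b1*, the cochaperones *Dnajb9*, *Dnajc3* and *Sdf2l1*, the protein disulfide isomerases *Pdia4* and *Pdia6*, and the transcription factors *Atf4*, *Ddit3* and *Xbp1*. They are 10 of the 46078 genes counted, each matched 1 Ensembl gene, and all 10 were among the 16741 genes that passed the filter on low counts. Epithelium was scraped from the distal ileum of 27 male C57BL/6 mice, labelled post natal day 56, and its RNA was sequenced from 1 library per mouse. Control mice (3) were gavaged with sesame oil vehicle, and 3 mice each received the dioxin TCDD (2,3,7,8-tetrachlorodibenzo-*p*-dioxin) in the same oil, every 4 days for 28 days, at 8 doses: 0.01 and 0.03, 0.1 and 0.3, 1 and 3, and 10 and 30 µg/kg. TCDD is a persistent ligand of the aryl hydrocarbon receptor (AhR), a transcription factor. Mice were co-housed, and the cage of each is not in the labels, so an effect of cage cannot be told apart from dose.

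The unfolded protein response keeps the folding capacity of the ER in step with its load of new secretory and membrane proteins. The chaperone BiP, encoded by *Hspa5*, holds the ER sensors IRE1, PERK and ATF6 inactive, and all are released when unfolded proteins draw BiP away. Active IRE1 splices *Xbp1* mRNA, PERK slows translation but favors that of *Atf4*, and ATF6 is cleaved to a transcription factor, after which XBP1 and ATF6 raise chaperone genes and ATF4 raises amino acid genes and *Ddit3*, which encodes the pro-apoptotic factor CHOP. In the gut the secretory goblet, Paneth and plasma cells depend on this pathway most. Counts per gene hold neither *Xbp1* splicing nor the translation of *Atf4*, which were not measured.

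The promoters of some of these genes carry sites through which the pathway works. Those of 2 chaperones and 2 other genes of the pathway that moved are shown. Each is the 250 bases before the start site in RefSeq (GRCm38.p6), read in the direction of the gene, with matches in capitals. The searches, on both strands, were for the ER stress response element ERSE, which is CCAAT and CCACG with any 9 bases between them, the shorter ERSE-II, which is ATTGG and CCACG with any 1 base between them, and an ATF4-type element (CARE), spelled TGATGNAA. In *Hspa5* (chr2:34771840-34772089, plus strand) and *Hsp90b1* (chr10:86705445-86705694, minus strand) the capitals mark ERSE, in *Herpud1* (chr8:94386179-94386428, plus strand) first CARE, on the opposite strand, and then ERSE-II, and in *Asns* (chr6:7693210-7693459, minus strand) CARE.
Hspa5: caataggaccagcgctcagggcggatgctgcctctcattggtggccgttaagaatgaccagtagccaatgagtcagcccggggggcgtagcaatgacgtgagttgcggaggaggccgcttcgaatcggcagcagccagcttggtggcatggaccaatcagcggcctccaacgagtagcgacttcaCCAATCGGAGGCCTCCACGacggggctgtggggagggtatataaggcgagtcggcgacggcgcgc
Hsp90b1: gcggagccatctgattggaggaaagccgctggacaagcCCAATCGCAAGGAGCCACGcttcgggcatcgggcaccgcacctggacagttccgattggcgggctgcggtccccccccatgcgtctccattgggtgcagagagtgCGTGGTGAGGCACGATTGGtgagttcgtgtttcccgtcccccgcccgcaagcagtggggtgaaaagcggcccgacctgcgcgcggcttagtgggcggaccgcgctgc
Herpud1: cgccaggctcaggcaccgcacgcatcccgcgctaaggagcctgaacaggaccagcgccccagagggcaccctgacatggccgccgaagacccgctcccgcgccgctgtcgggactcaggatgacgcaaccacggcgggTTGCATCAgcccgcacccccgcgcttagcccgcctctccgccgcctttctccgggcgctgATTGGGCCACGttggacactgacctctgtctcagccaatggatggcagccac
Asns: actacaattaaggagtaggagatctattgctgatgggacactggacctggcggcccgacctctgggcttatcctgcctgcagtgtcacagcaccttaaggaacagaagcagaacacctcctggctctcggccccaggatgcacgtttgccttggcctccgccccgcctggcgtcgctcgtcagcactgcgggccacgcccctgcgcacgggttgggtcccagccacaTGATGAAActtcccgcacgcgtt

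ERSE was found in 4 of the 10 genes and in 0.113% of all 32851 promoter windows of the same length. The matches are given here as read in the direction of the element, with the 9 free bases in lower case.
Hspa5, 65 to 47 bases before the start: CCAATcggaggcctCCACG
Hsp90b1, 212 to 194 bases before the start: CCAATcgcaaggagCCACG
Hsp90b1, 107 to 89 bases before the start, opposite strand: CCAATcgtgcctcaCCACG
Dnajc3, 105 to 87 bases before the start: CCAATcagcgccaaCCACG
Pdia6, 98 to 80 bases before the start: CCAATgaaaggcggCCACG
The other 6 windows held none in these exact letters. ERSE-II was in 0.0304% of all windows and CARE in 3.45%, and neither was in the windows of the 10 genes. GCGTG, the core that AhR binds, was in 28.2% of all windows and in those of 6 of the 10 genes (*Hsp90b1*, *Dnajc3*, *Sdf2l1*, *Pdia6*, *Ddit3* and *Atf4*). Both matches of *Hsp90b1* overlapped an ERSE. These matches are descriptions of the letters in the windows and not of binding.

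Each mouse had 12.26 to 17.14 M reads on genes, and the least counted of the 10 genes, *Ddit3*, had 84 to 177 reads per mouse. Values are in CPM, a gene's reads per M reads of the normalized library. *Cyp1a1*, the standard AhR target, checks the dosing: it was at 0 to 0.211 CPM in vehicle mice and at 1062, 1881 and 2279 CPM at 30 µg/kg. Genes were called at an adjusted p of at most 0.05 by edgeR's quasi-likelihood test together with a change of at least 1.5-fold. Other features of these mice also moved with dose. All 8 clock genes of a set that peaks together (*Dbp* and the *Per* genes among them) were called higher at 30 µg/kg. A clock score, their mean z score less that of 3 genes of opposite phase, was between -1.8 and -1.43 in the vehicle group and between 1.88 and 2.49 in mice given 30 µg/kg. The score was also high in mouse 14 at 0.01 µg/kg (1.31). Marker genes were summed in CPM, in the vehicle group first and then in mice given 30 µg/kg: 8 plasma cell markers came to between 1970 and 2655, then between 599.9 and 1168, and 8 goblet cell markers to between 21970 and 24720, then between 30760 and 33660. The 7 Paneth cell markers came to between 1773 and 4277, then between 1997 and 3628 (0 of 7 called), and 9 enterocyte markers to between 11300 and 13260, then between 11330 and 22220 (2 of 9 called higher and 1 lower). The 5 stem cell and proliferation markers came to between 401.5 and 570.0, then between 208.5 and 453.5 (2 of 5 called lower, *Lgr5* and *Top2a*), and 6 enteroendocrine markers to between 104.8 and 121.8, then between 195.6 and 221.7 (3 of 6 called higher). Library indexes, read from the names of the count tables, were used a first time in 16 mice (vehicle to 0.3 µg/kg, and mouse 41 at 1 µg/kg) and a second time in the other 11, so index use and dose can be told apart only at 1 µg/kg. In scrapings of mixed cells, fewer cells of a type and less RNA per cell cannot be told apart.

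The 10 genes were well expressed in vehicle mice. On the scale of mean CPM per kb of exon, the level was 132 ± 13.2 (SD, n = 3) for *Hsp90b1*, 106.5 ± 11.5 for *Hspa5*, 78.9 ± 4.60 for *Xbp1*, 50.6 ± 6.28 for *Pdia4*, 43.7 ± 4.28 for *Atf4*, 34.5 ± 1.64 for *Dnajc3*, 28.2 ± 4.82 for *Pdia6*, 24.7 ± 4.42 for *Dnajb9*, 24.7 ± 1.19 for *Sdf2l1* and 4.96 ± 1.07 for *Ddit3*. The first 9 were above the 90th percentile of tested genes with a known exon length, and *Ddit3* was at the 60.7th. In this order the mice of *Hsp90b1* and *Hspa5* overlapped, as did those of *Pdia4* and *Atf4*, and each of *Dnajc3*, *Pdia6*, *Dnajb9* and *Sdf2l1* overlapped its neighbor. The ranges of mice did not overlap between *Hspa5* and *Xbp1*, *Xbp1* and *Pdia4*, *Atf4* and *Dnajc3*, or *Sdf2l1* and *Ddit3*. Of the exon bases of *Hsp90b1* 15.7% are also annotated to 3 other genes, and of those of *Ddit3* 10.9%, so their counts may be incomplete. In *Dnajb9*, 5.5% of all stretches of 50 exon bases recur in *Gm6568*.

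None of the 10 genes was called at any dose. At 30 µg/kg, where 9.4% of the 16741 genes were called, 0 of 10 were called by edgeR and 0 of 10 by DESeq2. An unadjusted p was below 0.05 in 4 of 10 by both. The share of all genes with such a p was not counted, here or below. It is at least the share passing the adjusted p, 17.8% at 30 µg/kg by edgeR, so these counts are only descriptions. At 0.01, 0.03, 0.1 and 0.3 µg/kg 0 of 10 were called against 0% of all genes, and at 1, 3 and 10 µg/kg 0 of 10 against 0.591%, 1.11% and 2.53%. The number with an unadjusted p below 0.05 at these 7 doses was 1, 1, 2, 3, 2, 1 and 1 in order of dose by edgeR, and DESeq2 called 0 at each. On the adjusted p alone 0 of 10 passed at 1, 3 and 10 µg/kg by edgeR, against 0.902%, 1.7% and 3.8% of all genes. On the adjusted p alone, which 17.8% of all genes passed at 30 µg/kg (8.49% lower and 9.29% higher), 2 of the 10, *Pdia4* and *Xbp1*, were lower. Neither passed with index use as a covariate (adjusted p = 0.1226 for *Pdia4* and 0.2909 for *Xbp1*). The same held with the clock score (0.1738 and 0.5055) and with only the 6 mice compared (0.1446 and 0.1292). The log2 fold change of the 10 genes at 30 µg/kg ran from -0.43 to 0.28 with a median of -0.15, where the median of all genes was 0.02.

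The 95% intervals show what size of change these mice could hide, given a spread per gene that all 9 groups share. The mice at 30 µg/kg were the most unlike each other. The counts of a pair of them differed by a chi-square per degree of freedom of up to 74.26, against at most 22.55 in the other groups. The intervals at 30 µg/kg may thus be too narrow. At 30 µg/kg the intervals of 6 genes lay within 1.5-fold in both directions, while those of *Pdia4* (-0.64 to -0.22), *Pdia6* (-0.62 to -0.01), *Sdf2l1* (-0.67 to -0.04) and *Ddit3* (-0.08 to 0.65 on the log2 scale) reached beyond it. At 1 and 3 µg/kg all 10 intervals lay within 1.5-fold. At 0.01 to 0.3 µg/kg 9 of 10 did, all but *Dnajb9*, and at 10 µg/kg 8 of 10, all but *Dnajb9* and *Ddit3*.

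**Figure D1:**
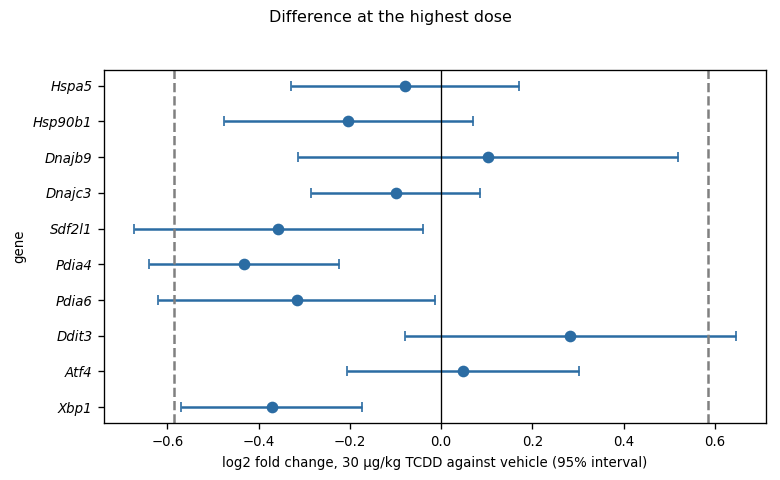
Log2 fold change of the 10 genes at 30 µg/kg TCDD against vehicle (x axis, 3 mice each, edgeR's quasi-likelihood fit); points are estimates, bars are 95% intervals, and dashed lines mark 1.5-fold. The estimates run from -0.43 for *Pdia4* to 0.28 for *Ddit3*, and the intervals of *Pdia4* and *Xbp1* lie below 0 by the widest margin.

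*Hspa5* (chromosome 2, 34771970 to 34777547, plus strand, GRCm38) encodes BiP, the main ER chaperone of the Hsp70 family and the classic readout of ER stress. It was at 407, 440 and 503 CPM in vehicle mice, at 442, 381 and 399 CPM at 3 µg/kg, at 446.5, 569 and 464.5 CPM at 10 µg/kg and at 478, 357 and 442.5 CPM at 30 µg/kg. The mice at 30 µg/kg fell within and below the range of the vehicle mice, and only mouse 58 at 10 µg/kg stood above it. Its log2 fold change was -0.08 ± 0.12 (SE) at 30 µg/kg (adjusted p = 0.701) and 0.13 ± 0.12 at 10 µg/kg (adjusted p = 0.636). The lowest group means were at 0.1 µg/kg (353, 357 and 397 CPM) and 0.3 µg/kg (352, 348 and 418.5 CPM), with log2 fold changes of -0.29 ± 0.12 and -0.27 ± 0.12 and adjusted p = 0.729 and 0.63. All 3 mice at 0.1 µg/kg were below all 3 vehicle mice. The share of all genes whose mice do not overlap those of vehicle was counted only at 30 µg/kg, here and for the genes below. Over 27 mice its level spanned 1.67-fold from the lowest to the highest.

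*Hsp90b1* (Grp94), the ER member of the Hsp90 family, was at 541, 473 and 578 CPM in vehicle mice and at 513, 422 and 447 CPM at 30 µg/kg. A pair of the 3 treated mice was lower than every vehicle mouse, and the difference of -0.20 ± 0.13 on the log2 scale did not pass the test (adjusted p = 0.312). The highest group was 0.1 µg/kg (611, 543.5 and 569 CPM). Group means of *Hsp90b1* stayed between 461 and 575 CPM over all 9 groups.

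The cochaperones went different ways. *Dnajb9* (ERdj4), a J protein that restrains IRE1, was at 55.8, 57.2 and 76.0 CPM in vehicle mice and at 43.4, 94.4 and 65.2 CPM at 30 µg/kg, where the 3 mice included the highest value of all 27 and 1 below all vehicle mice. Its log2 fold change of 0.10 ± 0.20 was the least certain of the 10 genes (adjusted p = 0.774). From 0.01 to 0.3 µg/kg its 12 mice were at 41.9 to 60.2 CPM, 11 of them below the lowest vehicle mouse. At 3 µg/kg *Dnajb9* was at 79.6, 62.7 and 63.0 CPM. Its lowest group mean (0.3 µg/kg, 47.4 CPM) and its highest (10 µg/kg, 72.1 CPM) differed by 1.52-fold, the widest span of group means among the 10 genes.

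*Dnajc3* (p58IPK), which binds unfolded substrates in the ER lumen and restrains PERK, had the narrowest range of the 10 genes. It was at 172, 172 and 187 CPM in vehicle mice and at 178, 153 and 165 CPM at 30 µg/kg (log2 fold change -0.10 ± 0.09, adjusted p = 0.486). Its 27 mice spanned 1.40-fold, and its group means lay between 161 and 186 CPM. *Sdf2l1*, part of an ER chaperone complex with BiP, was at 26.5, 26.6 and 28.9 CPM in vehicle mice and at 24.9, 15.3 and 23.9 CPM at 30 µg/kg. All 3 treated mice were below all vehicle mice, yet the difference of -0.36 ± 0.15 did not pass (adjusted p = 0.109). It was highest at 0.1 µg/kg, at 34.8, 29.9 and 30.9 CPM.

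The disulfide isomerases were lowest at the highest dose. *Pdia4* (ERp72; chromosome 6, 47796141 to 47813430, minus strand) was at 113, 113 and 139 CPM in vehicle mice. It was at 115, 122 and 120.5 CPM at 0.01 µg/kg, at 119, 127 and 108 CPM at 0.03 µg/kg, at 117.5, 126 and 123 CPM at 0.1 µg/kg and at 107, 100.1 and 101 CPM at 0.3 µg/kg. It was at 98.7, 105 and 108 CPM at 1 µg/kg, at 111, 109.5 and 100.5 CPM at 3 µg/kg, at 106, 125 and 114.5 CPM at 10 µg/kg and at 101, 73.4 and 95.5 CPM at 30 µg/kg. All mice at 0.3, 1, 3 and 30 µg/kg were below all vehicle mice, and those at the other doses overlapped them. These comparisons share the same 3 vehicle mice, and at 30 µg/kg alone 13.3% of all genes were so. At 30 µg/kg *Pdia4* was 1.35-fold lower (log2 fold change -0.43 ± 0.10, adjusted p = 0.00473), the largest change among the 10 genes, and it was the only one with any difference among the 9 groups (adjusted p = 0.039), where 9.53% of all genes passed.

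*Pdia6* (P5), which also works on the IRE1 sensor, was at 95.4, 95.1 and 126.5 CPM in vehicle mice and at 108, 60.2 and 86.4 CPM at 30 µg/kg. The groups overlapped, and the difference of -0.32 ± 0.15 did not pass (adjusted p = 0.141). At 0.1 µg/kg it was at 122, 111 and 123 CPM.

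Among the transcription factors *Xbp1* alone passed the adjusted p at 30 µg/kg. *Xbp1* (chromosome 11, 5520659 to 5525893, plus strand), whose spliced product raises ER biogenesis in secretory cells, was at 246, 249.5 and 273 CPM in vehicle mice. It was at 259, 203 and 201.5 CPM at 0.01 µg/kg, at 205, 218 and 201 CPM at 0.03 µg/kg, at 192, 202 and 227 CPM at 0.1 µg/kg and at 224, 213 and 197 CPM at 0.3 µg/kg. It was at 205, 208 and 201 CPM at 1 µg/kg, at 215, 202 and 195 CPM at 3 µg/kg, at 197, 222 and 203.5 CPM at 10 µg/kg and at 213, 174 and 207 CPM at 30 µg/kg. Thus 23 of the 24 treated mice lay below the lowest vehicle mouse, the exception being mouse 9 at 0.01 µg/kg, and at least 23 did so in 133 (0.794%) of the genes tested. The log2 fold change was -0.21 ± 0.10, -0.30 ± 0.10, -0.31 ± 0.10, -0.28 ± 0.10, -0.32 ± 0.10, -0.33 ± 0.10 and -0.30 ± 0.10 from 0.01 to 10 µg/kg, none past the test by edgeR (lowest adjusted p = 0.0814), and -0.37 ± 0.10 at 30 µg/kg (adjusted p = 0.00968). All 8 comparisons share the same 3 vehicle mice. DESeq2 passed *Xbp1* on the adjusted p alone at 1, 3, 10 and 30 µg/kg.

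*Atf4*, the effector of PERK and of amino acid stress, is controlled mainly in translation, so its mRNA is a partial readout. It was at 98.5, 95.8 and 114.5 CPM in vehicle mice and at 101, 108 and 111 CPM at 30 µg/kg, within the range of the vehicle mice (log2 fold change 0.05 ± 0.12, adjusted p = 0.834). *Ddit3* (CHOP), induced late in unresolved ER stress, was at 6.41, 9.24 and 9.83 CPM in vehicle mice, at 8.55, 11.2 and 12.1 CPM at 10 µg/kg and at 9.53, 10.7 and 10.8 CPM at 30 µg/kg. The upper mice at 10 and 30 µg/kg exceeded all vehicle mice and the lower ones did not, and the differences of 0.32 ± 0.17 and 0.28 ± 0.18 did not pass (adjusted p = 0.356 and 0.285).

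**Figure D2:**
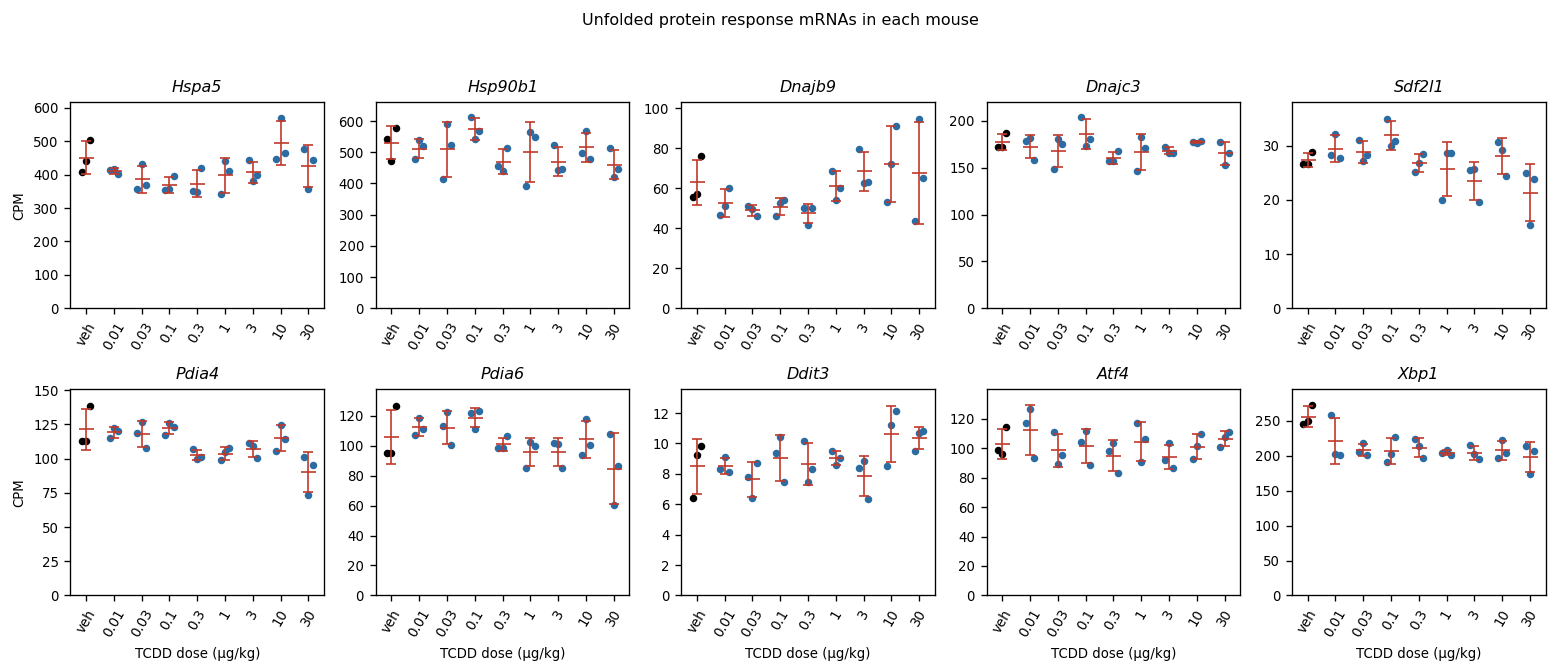
CPM of each of the 10 genes (y axes, from 0) in every mouse by TCDD dose (x axis, veh = vehicle); black points are vehicle mice, blue points treated mice, and red bars the mean ± SD of 3 mice. *Xbp1* is lower than vehicle in all treated mice but 1, *Pdia4*, *Pdia6* and *Sdf2l1* have their lowest mouse at 30 µg/kg, and *Hspa5*, *Atf4* and *Dnajc3* overlap the vehicle mice there.

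Over the rank of the dose, 4 of the 10 genes fell and 0 rose, while 26.2% of all genes tested passed (12.8% fell and 13.4% rose). The slopes were -0.039 log2 units per dose step for *Pdia4* (adjusted p = 0.00596), -0.031 for *Xbp1* (adjusted p = 0.0102), -0.0389 for *Pdia6* (adjusted p = 0.0361) and -0.0413 for *Sdf2l1* (adjusted p = 0.0444). Rising slopes of *Dnajb9* (0.0481, adjusted p = 0.0715) and *Ddit3* (0.0369, adjusted p = 0.0905) did not pass. An unadjusted p was below 0.05 in 6 of 10, a cut that at least 26.2% of all genes passed. Within the first index use 0 of 10 passed (3 of 10 at an unadjusted p below 0.05), as did 0.149% of all genes, and within the second 0 of 10 passed (0 of 10), as did 1.43%. With index use or with the clock score as a covariate 0 of 10 passed, with slopes of -0.0557 and -0.0405 for *Pdia4* (adjusted p = 0.155 and 0.264) and of -0.0478 and -0.0386 for *Xbp1* (adjusted p = 0.145 and 0.23). The slopes of *Pdia4* were -0.0533 and -0.0773 within the first and second use, and those of *Xbp1* -0.0601 and -0.0221.

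At 30 against 3 µg/kg, doses of the same index use, 0 of 10 were called by edgeR or DESeq2, beside 0.89% of all genes (1.17% on the adjusted p alone, 0 of 10). An unadjusted p was below 0.05 in 2 of 10, and the share of all genes was not counted. *Pdia4* differed by -0.25 ± 0.10 (adjusted p = 0.255), *Ddit3* by 0.40 ± 0.18 (adjusted p = 0.313) and *Hspa5* by 0.06 ± 0.12 (adjusted p = 0.867). The interval of each of the 10 but *Ddit3* lay within 1.5-fold. The clock was not matched between these doses: 2 of 3 mice at 3 µg/kg (scores of 1.32 and 1.73) were below every mouse at 30 µg/kg, and the clock gene *Per2* was called higher at 30 µg/kg (0.97 ± 0.24, adjusted p = 0.0491).

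The decreases at 30 µg/kg rested in part on 2 mice. Mouse 4 was the highest of the 3 vehicle mice in 10 of 10 genes (in 33.1% of all genes tested), and mouse 67 the lowest at 30 µg/kg in 7 of 10 (in 35.4% of all genes), though its *Dnajb9* was the highest of all. Without mouse 4, neither *Pdia4* (adjusted p = 0.053) nor *Xbp1* (adjusted p = 0.0614) passed at 30 µg/kg. Without mouse 67, *Pdia4* passed (adjusted p = 0.0365) and *Xbp1* did not (adjusted p = 0.0587), and without mouse 65 at the same dose *Pdia6* and *Sdf2l1* passed as well, on the adjusted p alone. The 3 mice at 30 µg/kg did not overlap the vehicle mice in 3 of the 10 genes, *Sdf2l1*, *Pdia4* and *Xbp1*, all lower, and in 27.1% of all genes, 13.3% lower, with an exact permutation test of p = 0.1 each, the smallest that 3 against 3 mice allow. Plasma cell markers, which mark cells rich in ER, were lowest in the same dose group, with 5 of 8 called lower, and *Top2a*, a gene of dividing cells, was highest of all 27 mice in mouse 4 (177 CPM) and lowest in mouse 67 (61.6 CPM). The part of either in the decreases of *Pdia4* and *Xbp1* was not tested.

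The 10 genes did not vary as 1 unit over the 27 mice. The correlation of each gene's log2 CPM with the mean z score of the other 9 was 0.727 for *Pdia4*, 0.665 for *Pdia6*, 0.622 for *Dnajc3*, 0.604 for *Hsp90b1*, 0.537 for *Sdf2l1*, 0.516 for *Hspa5* and 0.407 for *Xbp1*, but 0.11 for *Ddit3*, 0.07 for *Atf4* and -0.142 for *Dnajb9*. Apart from the cochaperone *Dnajb9*, the lowest of all, the coefficients were larger for the chaperones, cochaperones and isomerases than for the transcription factors *Xbp1*, *Atf4* and *Ddit3*. Of all other genes, *Hyou1* (Pearson's r = 0.859), *Pdia3* (0.786), *Morf4l2* (0.779), *Serp1* (0.75) and *Sgms1* (0.738) followed the mean z score of the 10 most closely, and *Nab2* (-0.748) and *Gnpda2* (-0.739) ran most against it. These correlations share libraries and depth and are given as descriptions.

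The other genes of the pathway were read from lists set by function. The lists were chosen with earlier results of these data known, so their counts beside all genes are descriptions. Among the 5 stress sensors 1 was called, *Ern2*, which encodes the gut form of IRE1 found in goblet cells and rose 1.53-fold. It was at 44.5, 45.1 and 46.6 CPM in vehicle mice, at 71.7, 62.1 and 62.7 CPM at 10 µg/kg and at 74.6, 64.5 and 68.7 CPM at 30 µg/kg, above all vehicle mice (log2 fold change 0.61 ± 0.09, adjusted p = 6.74e-05). In 22 of 24 treated mice *Ern2* was above every vehicle mouse, and at least 22 were so in 0.986% of all genes. The widespread form *Ern1* (-0.23 ± 0.10, adjusted p = 0.11), *Atf6* (0.26 ± 0.09, adjusted p = 0.0572), *Atf6b* (-0.16 ± 0.09) and *Eif2ak3*, encoding PERK (0.11 ± 0.13), did not pass. Over dose rank *Ern2* (0.0701 per step, adjusted p = 8.82e-07) and *Atf6* (0.0377, adjusted p = 0.00181) rose and *Ern1* (-0.0467, adjusted p = 0.00184) fell. With index use or the clock score as a covariate the slope of *Ern2* was 0.0818 or 0.0664 (adjusted p = 0.0179 and 0.0605). Its change at 30 µg/kg was then 0.631 or 0.53 (adjusted p = 0.034 and 0.0959). Within the first and second index use its slope was 0.0691 and 0.106 (adjusted p = 0.0715 and 0.208). Goblet cell markers were higher at 30 µg/kg too, 1 of 8 called and 5 of 8 on the adjusted p alone, and their part in the rise of *Ern2* was not tested.

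Of 14 other ER folding genes 1 fell and 0 rose. *Ero1l*, the oxidase that recharges disulfide isomerases, was at 78.6, 73.7 and 86.9 CPM in vehicle mice and at 61.1, 48.0 and 49.7 CPM at 30 µg/kg, with no overlap (log2 fold change -0.59 ± 0.13, adjusted p = 0.00227). It was just past the 1.5-fold limit at 1.51-fold. Of all mice *Ero1l* was highest in mouse 4 and lowest in mouse 67. Without mouse 4, 67 or 68 it was at -0.525, -0.545 or -0.57 (adjusted p = 0.0198, 0.0182 and 0.0122), each under 1.5-fold. It stayed called without any other single mouse of the comparison. With at least 10 counts required in every mouse it was at -0.58, also under 1.5-fold. With index use or the clock score as a covariate it was at -0.799 or -0.238 (adjusted p = 0.0574 and 0.553). The median of the list was -0.14 and 12 of 14 estimates were below 0, among them *Hyou1*, the large ER Hsp70 relative, at -0.35 ± 0.12 (adjusted p = 0.05003), just outside the threshold. *Calr*, *Canx*, *Pdia3* and *P4hb*, further chaperones and isomerases, had estimates of -0.10, -0.17, -0.13 and 0.03.

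Of 11 genes of ER-associated degradation (ERAD), which clears misfolded proteins, 1 rose and 0 fell. It was *Herpud1*, which encodes a membrane protein of the ERAD complex, and its promoter, shown above, is 1 of the 10 windows with an ERSE-II. *Herpud1* was at 91.2, 96.9 and 125 CPM in vehicle mice, at 65.4, 88.7 and 127 CPM at 0.01 µg/kg, at 94.4, 138 and 116 CPM at 1 µg/kg, at 167, 180.5 and 187 CPM at 3 µg/kg, at 162, 235 and 212.5 CPM at 10 µg/kg and at 204, 304 and 298 CPM at 30 µg/kg. From 3 µg/kg on every mouse was above every vehicle mouse, and at 30 µg/kg alone 13.7% of all genes were so. The log2 fold change was 0.77 ± 0.20 at 3 µg/kg (adjusted p = 0.0467), 0.96 ± 0.20 at 10 µg/kg (adjusted p = 0.00654) and 1.36 ± 0.20 at 30 µg/kg (2.57-fold, adjusted p = 6.78e-05).

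*Herpud1* also rose within the second index use alone (0.327 per dose step, adjusted p = 0.0129), but had no slope within the first (-0.0003, adjusted p = 0.999). Mouse 14, whose clock score of 1.31 was just under those at 3 µg/kg, had 127 CPM, the highest at 0.01 µg/kg, while mouse 41 at 1 µg/kg, with a clock score of 1.70, had 94.4 CPM. With the clock score or index use as a covariate the change at 30 µg/kg was 0.82 (adjusted p = 0.182) or 0.935 (adjusted p = 0.151). The other 10 ERAD genes had 0 called at 30 µg/kg, with *Os9*, an ER lectin, at 0.33 ± 0.10 (adjusted p = 0.0304) and *Derl3*, which plasma cells express, at -1.08 ± 0.46 (adjusted p = 0.11). *Sel1l*, *Syvn1* and *Edem1*, the core of the same pathway, had estimates of 0.08, 0.07 and -0.10.

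**Figure D3:**
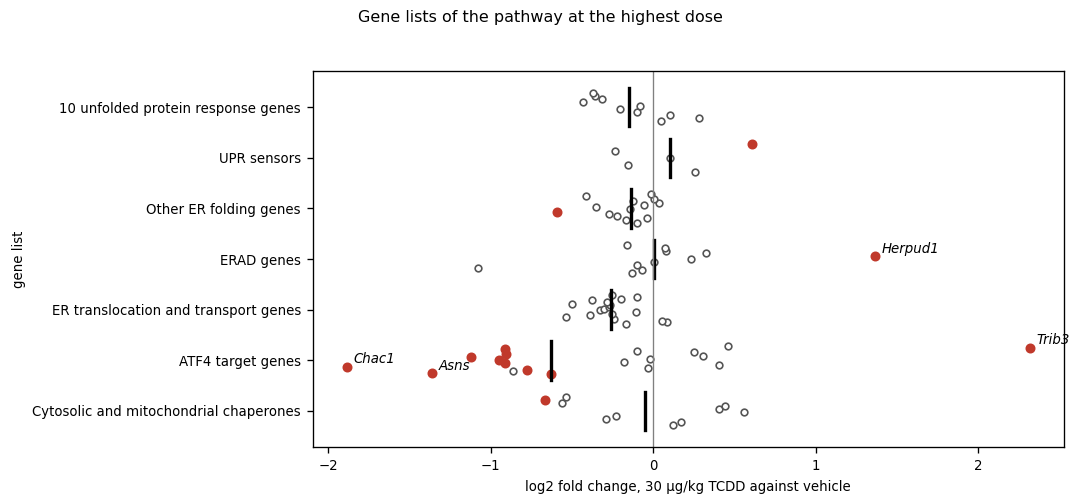
Log2 fold change at 30 µg/kg TCDD against vehicle (x axis) for each gene of 7 lists (rows); filled red points were called (adjusted p of at most 0.05 and 1.5-fold), open points were not, and black bars are list medians. The 10 genes lie between -0.43 and 0.28 with 0 called. *Herpud1* and *Trib3* stand far to the right of their lists, and 9 of 19 ATF4 target genes were called lower.

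Among genes that ATF4 activates, 9 of 19 fell and 1 rose at 30 µg/kg, beside 3.98% and 5.42% of all genes, and their median was -0.63 (0.02 over all genes). The 9 were *Chac1*, a glutathione degrading enzyme, *Asns*, which makes asparagine, *Psat1*, *Phgdh*, *Shmt2* and *Mthfd2* of serine and one-carbon metabolism, the amino acid carrier *Slc7a5*, the alanyl-tRNA synthetase *Aars* and the factor *Atf5*, with log2 fold changes from -1.89 to -0.63. *Trib3*, a pseudokinase that restrains ATF4, rose.

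*Asns* was at 41.7, 26.5 and 58.6 CPM in vehicle mice, at 23.03, 23.99 and 16.4 CPM at 3 µg/kg, at 21.1, 26.1 and 19.1 CPM at 10 µg/kg and at 21.99, 12.4 and 14.98 CPM at 30 µg/kg. Every mouse from 3 µg/kg on was below every vehicle mouse, and at 30 µg/kg alone 13.3% of all genes were so. The log2 fold change of *Asns* was -1.004 ± 0.26 at 3 (adjusted p = 0.0454), -0.93 ± 0.26 at 10 (adjusted p = 0.0404) and -1.36 ± 0.26 at 30 µg/kg (adjusted p = 0.001). *Chac1* was at 2.67, 2.71 and 7.34 CPM in vehicle mice and at 1.36, 1.24 and 0.814 CPM at 30 µg/kg (-1.89 ± 0.44, adjusted p = 0.00489). The vehicle mice of *Chac1* were far apart, mouse 4 standing well above the other two.

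*Trib3* was at 3.38, 2.79 and 3.39 CPM in vehicle mice, at 10.3, 9.83 and 7.22 CPM at 1 µg/kg, at 9.67, 9.09 and 10.53 CPM at 3 µg/kg, at 8.47, 6.14 and 10.3 CPM at 10 µg/kg and at 6.80, 21.8 and 19.2 CPM at 30 µg/kg. All 12 of these treated mice were above all vehicle mice, and at 30 µg/kg alone 13.7% of all genes were so. The log2 fold changes of *Trib3* were 1.515 ± 0.36 (adjusted p = 0.0438), 1.61 ± 0.36 (adjusted p = 0.0196), 1.38 ± 0.36 (adjusted p = 0.0332) and 2.32 ± 0.36 (adjusted p = 0.000123) in order of dose. Mouse 65 at 30 µg/kg stayed at the level of the lower doses. At 0.01 µg/kg *Trib3* was at 2.66, 4.197 and 7.52 CPM, the last in mouse 14, and mouse 41, of the first index use, had 10.3 CPM. With the clock score as a covariate its change at 30 µg/kg was 1.35 (adjusted p = 0.206), and with index use it was 2.60 (adjusted p = 0.0202).

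**Figure D4:**
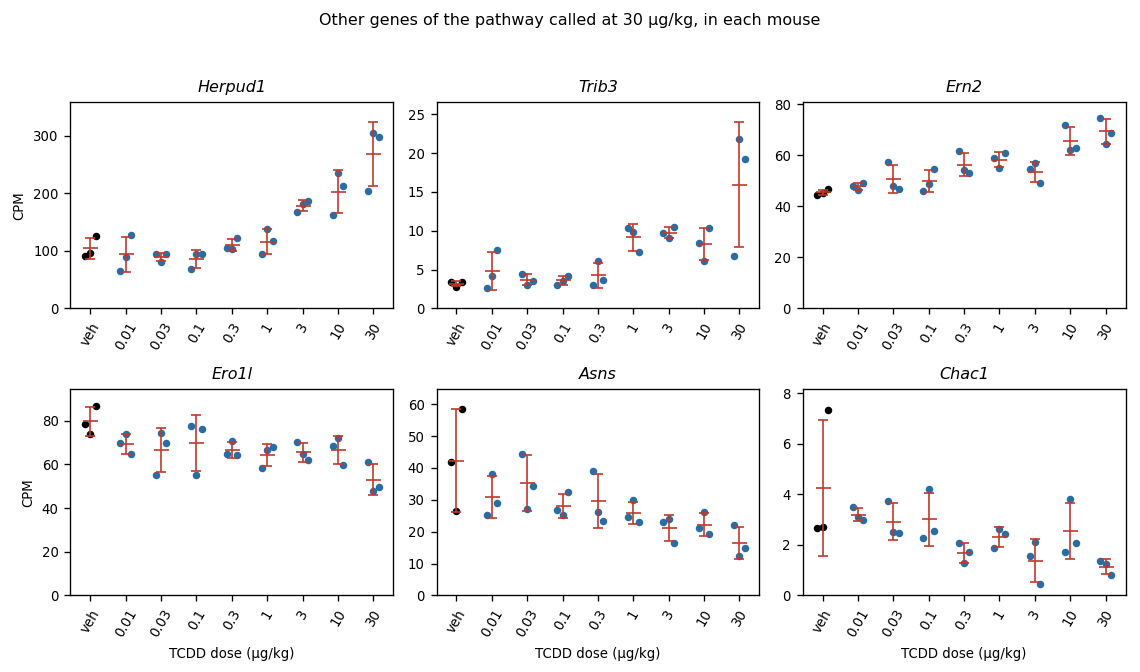
CPM (y axes, from 0) of 6 other genes of the pathway called at 30 µg/kg in every mouse by TCDD dose (x axis, veh = vehicle); black points are vehicle mice, blue points treated mice, and red bars the mean ± SD of 3 mice. *Herpud1* stands above all vehicle mice from 3 µg/kg on and *Trib3* from 1 µg/kg on, while at 30 µg/kg *Ern2* is above and *Ero1l*, *Asns* and *Chac1* are below all vehicle mice.

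The fall of the ATF4 targets rested in part on single mice. In all 9 genes mouse 4 was the highest vehicle mouse, and without it 1 of 19 was called lower, *Asns* (-1.05, adjusted p = 0.014). Without mouse 67 the count was 4, and without any 1 of the other 4 mice of the comparison it was 8 to 10. With index use as a covariate 1 of 19 was called lower, and with the clock score 0. The log2 fold change of *Asns* was then -1.47 and -1.19 (adjusted p = 0.105 and 0.172), that of *Chac1* -2.33 and -1.76 (adjusted p = 0.118 and 0.216), that of *Phgdh* -0.91 and -1.35 (adjusted p = 0.383 and 0.147) and that of *Psat1* -0.62 and -1.74 (adjusted p = 0.626 and 0.107), against -0.95 for *Phgdh* and -1.12 for *Psat1* without a covariate. The part of proliferation, whose marker *Top2a* was highest in mouse 4 and lowest in mouse 67, was not tested. In 6 of the 9 all mice at 30 µg/kg were below all vehicle mice, as in 13.3% of all genes. The 9 were picked as lower in this same comparison, so that count is only a description. Over dose rank 9 of the 19 fell and 3 rose, where 12.8% and 13.4% of all genes did. *Herpud1*, *Trib3* and *Ern2* kept adjusted p-values of at most 0.05 without any single 1 of the 6 mice, though *Ern2* was at 0.55, under the 1.5-fold limit, without mouse 65.

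Of 18 genes that carry proteins into and out of the ER, 16 had estimates below 0, the median was -0.26, and 0 were called by edgeR or by DESeq2. An unadjusted p was below 0.05 in 12, all lower, and the share of all genes was not counted. On the adjusted p alone 7 were lower, where 8.49% of all genes were. They were led by the oligosaccharyltransferase subunit *Rpn1* (-0.54 ± 0.11, adjusted p = 0.00155), the signal peptidase subunit *Spcs2* (-0.50 ± 0.13, adjusted p = 0.0101) and the translocon channel *Sec61a1* (-0.33 ± 0.09, adjusted p = 0.0178). *Rpn1* was at 172, 167 and 212 CPM in vehicle mice and at 149, 102 and 128 CPM at 30 µg/kg, with no overlap. Of all mice it was highest in mouse 4 and lowest in mouse 67. Of 10 chaperones outside the ER 1 was called, the mitochondrial *Hspe1*, which was lower (-0.67 ± 0.18, adjusted p = 0.0107). Its partner *Hspd1* was at -0.56 ± 0.19 (adjusted p = 0.0469, under 1.5-fold) and the cytosolic *Hspa8* at 0.44 ± 0.13 (adjusted p = 0.0243, under 1.5-fold). Without mouse 4 or mouse 67 *Hspe1* was at -0.541 or -0.534 (adjusted p = 0.0782 and 0.0767). With index use or the clock score as a covariate *Hspe1* was at -0.253 or -0.907 (adjusted p = 0.726 and 0.129).

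Promoter matches were read against the same fit. Of 35 genes with an ERSE in the window 18 were tested at 30 µg/kg, 1 was called (*Acacb*, higher, an acetyl-CoA carboxylase that is no chaperone), and their median log2 fold change was -0.10. Of 10 genes with an ERSE-II 6 were tested, and *Herpud1* was the only one called. Of 1056 genes with a CARE 277 were tested, 16 were called higher and 18 lower, where 5.42% and 3.98% of all genes were, and their median of 0.02 was that of all genes.

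**Figure D5:**
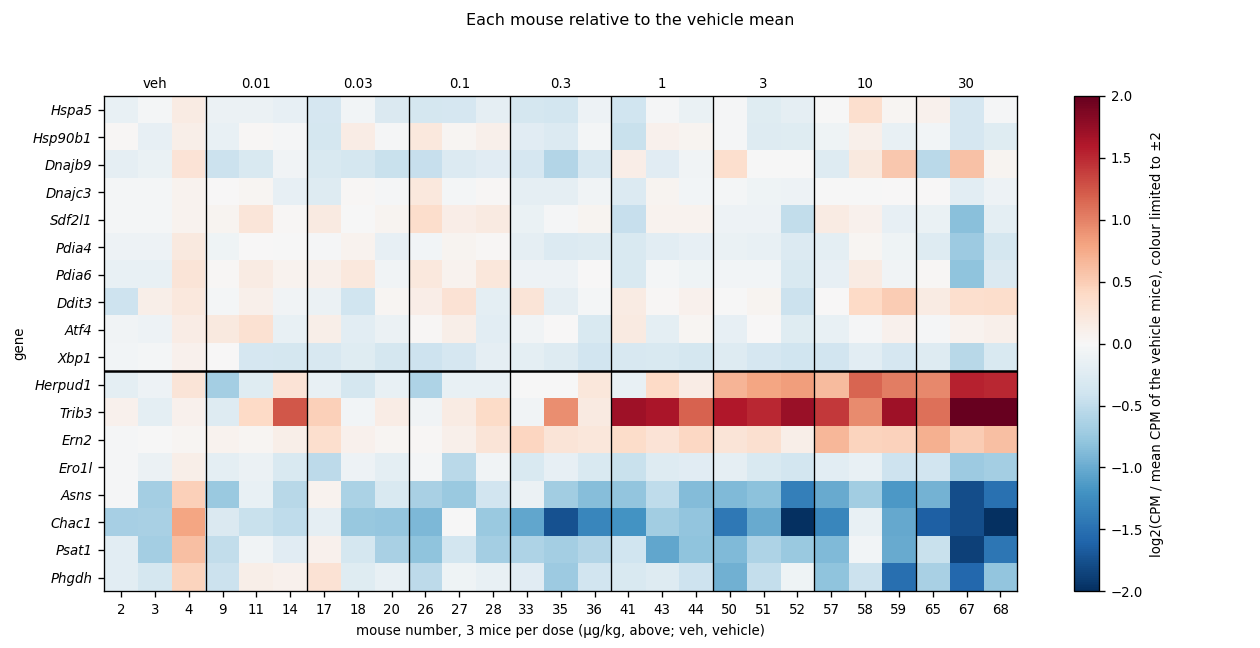
Log2 ratio of each mouse's CPM to the mean of the vehicle mice (colour, limited to ±2) for the 10 genes (above the line) and 8 other genes of the pathway (below it); columns are mouse numbers grouped by dose. Among the 10 genes mouse 67 is the lowest of all 27 mice in *Sdf2l1*, *Pdia4*, *Pdia6* and *Xbp1*, and *Herpud1* and *Trib3* are red in the mice at 3 µg/kg and above.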

How the data were processed

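Epithelial RNA of 27 mice was sequenced, 1 library per mouse. Per the labels and methods, the authors trimmed reads (Trimmomatic 0.33), aligned them to GRCm38 (TopHat2 2.1.0) and deposited whole-number read counts for each Ensembl gene. The processing notes also name FastQC 0.11.3, SAMtools 1.2.0, HTSeq 0.6.1 and DESeq. Strand settings of the counting are not given in the sources used here, so antisense and overlapping genes are uncertain. Reads on no gene, 44.48% to 49.52% of the unique reads, were left out.

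Groups came from the labels. Genes were filtered with filterByExpr, normalized by TMM and fitted with edgeR 4.0.16 (quasi-likelihood test, 9 groups, R 4.3.3), with p-values adjusted by Benjamini and Hochberg's method over 16741 genes. CPM uses the normalized library size. Intervals use the estimate, its SE (the estimate over the root of F) and the test's degrees of freedom. The procedure was tested on simulated data. The 27 pairs of mice of 1 group all differed by more than sampling noise. Labels do not number replicates, and p-values weigh a difference against the spread between these mice.

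Genes, exon lengths and symbols came from GENCODE (GRCm38), promoters from RefSeq (GRCm38.p6). The members and lists were chosen with earlier results of these data known. Besides the 10 genes, the text names, by rule, at most 5 called genes with the largest change in each pathway list, the 5 genes most like and 2 least like the mean z score, and *Cyp1a1*. Other genes were named after their values were seen. Alternatives were DESeq2 1.42.0, other scalings and filters, no fold limit, the 6 mice alone, covariates, log10 dose, subsets by index use and leaving out each mouse. The study called genes by fold change and a posterior probability, and the adjusted p took the latter's place.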

Additional observations from a re-analysis of the deposited data

How the results depend on the processing

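The count of the 10 genes called stayed at 0 at 30 µg/kg, at the 7 lower doses and at 30 against 3 µg/kg. This held under each normalization, filter, covariate, subset and tool, and with any 1 mouse left out (0 to 0). On the adjusted p alone the count at 30 µg/kg was 2, but 3 with library size only. It was 0 with either covariate and with only the 6 mice, and 0 to 4 when a mouse was left out. Genes with any difference among groups numbered 1, but 0 with upper-quartile normalization and with index use or clock score as a covariate, 2 with no filter and with DESeq2, and 0 to 3 when a mouse was left out. Genes with a trend numbered 4, but 0 with either covariate and within either index use, and 2 to 5 when a mouse was left out. ATF4 targets lower at 30 µg/kg numbered 9, but 1 with index use, 0 with the clock score, 1 with only the 6 mice, and 1 to 10 when a mouse was left out. The log2 fold changes of *Asns* and *Chac1* were -1.367 and -1.894 with only the 6 mice (-1.359 and -1.886 with all 27). The cause was not tested.

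Some log2 fold changes at 30 µg/kg changed sign. With the clock score these were *Hspa5* (0.075), *Hsp90b1* (0.091), *Dnajb9* (-0.245), *Dnajc3* (0.225) and the clock gene *Npas2* (0.117). With library size only, which moved the median of all genes from 0.019 to -0.111, they were *Dnajb9* (-0.05) and *Atf4* (-0.084). Leaving out a mouse gave *Hspa5* -0.171 to 0.011, *Dnajb9* -0.238 to 0.341 and *Atf4* -0.005 to 0.131. None of these values passed the test where the sign differed. With library size only *Ern2* (0.485, adjusted p = 0.00334) passed the test and was under 1.5-fold. Of the genes given by mouse, *Chac1* has the fewest counts beside *Cyp1a1*, 7 to 106 per mouse. No paired analysis was made, since each dose was given to different mice.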
